A study of Homo sapiens with 12 samples.

Results

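The subject is the baseline gene expression of MOLM14 cells before any treatment, measured in 3 of the 12 RNA sequencing libraries of the series. These libraries were taken by their label, which records neither all-trans retinoic acid (ATRA) nor doxycycline (DOX), and by the raw count columns that carry the same names. MOLM14 is an established human acute myeloid leukemia line of monocytic character. The cells carried an inducible short hairpin RNA against RIP140, a coregulator of nuclear receptors and the product of NRIP1. All cells, the untreated ones included, held this construct, which DOX switches on, and all were kept in alpha-modified minimum essential medium with 10% tetracycline-free bovine serum. The labels do not say whether the line is a clone, and no library of cells without the construct was analysed here. The other libraries of the series, given ATRA, DOX or both, enter no value below. Per the series' design text, the untreated libraries are biological replicates, so every SD below is the spread between such replicates of 1 line.

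Acute myeloid leukemia arises when myeloid progenitors keep dividing and stop maturing. MOLM14 carries a fusion of KMT2A, a histone methyltransferase, with MLLT3, and such fusions are known for keeping the HOXA genes and MEIS1 active. The line also carries an activating internal duplication in FLT3, a receptor tyrosine kinase of early blood progenitors. The normal path from granulocyte-monocyte progenitor to mature cell passes through a stage at which the proteases of the azurophil granule are made, followed by the proteins of later granules in neutrophils or by CD14 and scavenger receptors in monocytes.

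Library totals were 10370231, 11544011 and 18066027 counts in replicates 1, 2 and 3. Levels are given as TPM, the share of transcripts, computed here from the counts per kilobase of merged exons and scaled so that the nuclear protein-coding genes of a library sum to 1000000. Means are ± SD over n = 3 libraries. Replicate 3 stood apart from the others. Mitochondrial ribosomal RNA took 4.60% of its counts, against 2.54% and 2.85% in replicates 1 and 2. The biological coefficient of variation from edgeR, the spread beyond counting error, was 7.95% over all 3 libraries and 3.64% without replicate 3. There is 1 group and therefore no test, and results are levels with their spread. In a bulk library fewer cells of a type and less RNA per cell cannot be told apart. Intervals and floors given where counts are few cover counting error only.

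Of 19841 nuclear protein-coding genes, 11244 (56.7%) reached 1 TPM in every untreated library and are called expressed. A further 5526 (27.9%) stayed under 0.1 TPM in every library and are called silent, and 4853 of these had no count at all. The remaining 3071 genes are called low. Counts of list members are to be read against these shares, and a share near them says nothing particular about a list. By their mean, 118 genes lay at 1000 TPM or more, 1690 at 100 to under 1000 TPM, 6821 at 10 to under 100 TPM and 2962 at 1 to under 10 TPM.

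**Figure D1:**
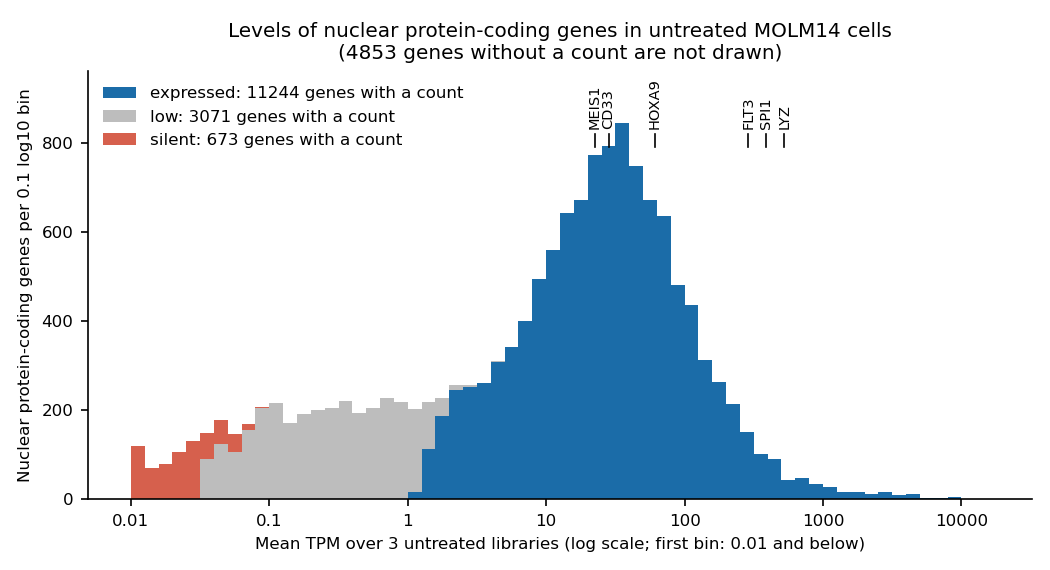
Number of nuclear protein-coding genes (vertical axis) by mean TPM over the 3 untreated libraries (horizontal axis, log scale), stacked by class, with ticks for FLT3, MEIS1, HOXA9, CD33, LYZ and SPI1. The 11244 expressed genes form 1 broad hump, a flat shoulder of low genes lies below 1 TPM, and the 6 marked genes sit within the hump, from 22.5 TPM for MEIS1 to 526 TPM for LYZ.

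Of the families known for functions in other tissues, some were mostly silent and others were not. Among olfactory receptors, the odour sensors of the nose, 3 of 389 were expressed and 358 silent, the highest being OR1F1 at 2.82 TPM. All 13 interferon alpha genes lacked a count. Of 94 keratin-associated protein genes 90 were silent, and of 55 keratins, the filament proteins of epithelia, 48 were silent. The expressed keratins were KRT10, KRT18 and KRT8, at 99.7, 43.0 and 12.1 TPM. Other families of this kind had smaller silent shares: 8 of 24 bitter taste receptors, 7 of 19 WNT ligands, 20 of 44 collagens and 11 of 24 claudins. Housekeeping families lay at the other end. Expressed genes numbered 76 of 78 mitochondrial ribosomal proteins, 37 of 40 proteasome subunits, 38 of 39 NDUF subunits of respiratory complex I and all 17 cytosolic aminoacyl-tRNA synthetases. In between stood the zinc finger ZNF genes (374 of 518 expressed), the solute carriers (199 of 377) and the potassium channels (24 of 96). Members of the interferon alpha and keratin-associated families are close copies of each other, and reads that fit several copies may be lost. The genes singled out in this family survey were chosen after their values were seen.

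Translation genes and granule proteases held the top of the ranking. The 10, 100 and 1000 most abundant protein-coding genes held 9.23% ± 0.304, 31.8% ± 0.523 and 62.7% ± 0.534 of the summed TPM. EEF1A1, the translation elongation factor that delivers aminoacyl-tRNA, came at the top with 16322, 13403 and 14459 TPM in replicates 1, 2 and 3. The 86 ribosomal protein genes together took 19.3% ± 0.382 of the TPM and filled 14 of the top 25 places, although their many pseudogenes can take reads from them. The granule genes SRGN, CTSG, AZU1 and ELANE also stood among the top 25, along with FTL (ferritin light chain), ACTB (actin) and GAPDH. Among nuclear genes of other types with at least 200 exon bases, 8 of the 10 with the highest TPM were antisense-type genes, which are taken up with the overlaps below. The mitochondrial ribosomal RNAs MT-RNR2 and MT-RNR1 lay above all of these on the same scale, at 60505 ± 19747 TPM and 59562 ± 24351 TPM. RN7SL1, the RNA of the signal recognition particle, had 2984, 3376 and 4827 TPM in replicates 1, 2 and 3 and was highest in replicate 3, while its near copy RN7SL2 had no count.

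The 6 marker genes of the label were all expressed. LYZ, lysozyme of monocytes and granulocytes, had 500.1, 583 and 495 TPM in replicates 1, 2 and 3. SPI1, the gene of the myeloid transcription factor PU.1, had 383, 378 and 395 TPM, and FLT3 had 283, 308 and 277 TPM. These 3 markers thus stood above the others in each library. HOXA9 had 58.0, 65.8 and 59.7 TPM in the same order, CD33, a sialic acid-binding surface receptor of myeloid cells, had 25.1, 27.9 and 31.7 TPM, and MEIS1, the DNA-binding partner of HOX proteins, had 20.5, 22.0 and 25 TPM. CD33 and MEIS1 were highest in replicate 3 and lowest in replicate 1. Of the markers of lymphoid, erythroid, megakaryocyte, mast, basophil, eosinophil and nonblood cells, 10 of 84 were expressed and 51 silent, beside 56.7% expressed and 27.9% silent among all protein-coding genes. Summed over the list, they came to 175, 185 and 188 TPM in replicates 1, 2 and 3. The T and NK cell genes CD3D, CD3E, CD2 and CD8B had no count, and neither had the B cell gene MS4A1, the globins HBA1, HBA2, HBB and HBG1, nor EPCAM of epithelia. For the 174 protein-coding genes without a count in the lists used here, 3 counts over the 3 libraries, the one-sided 95% limit that a count of 0 allows, correspond to 0.0127 to 0.726 TPM with a median of 0.117 TPM. Limits given below for genes without a count are of this kind, whereas the intervals for genes with few counts leave out both tails. The pairs HBA1 and HBA2 and TRBC1 and TRBC2 are near-identical, and reads that fit both copies may be lost. Some members of these lists were nonetheless expressed. NCAM1 (CD56), an adhesion molecule of NK and nerve cells, had 42.2, 47.7 and 52.8 TPM in replicates 1, 2 and 3. PECAM1, of endothelium and leukocytes, averaged 38.3 ± 2.08 TPM, KRT18 43.0 ± 3.57 TPM and TRAC, the constant region of the T cell receptor alpha chain, 15.1 ± 2.99 TPM. EPX, the eosinophil peroxidase, averaged 2.06 ± 0.491 TPM. TRAC had 126 counts over the 3 libraries, while TRBC1 and TRBC2 had none and CD3G had 1.

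The HOX clusters differed as blocks. All 10 HOXA genes listed were expressed, none of the 10 HOXB and 9 HOXD genes was, and the HOXC cluster held 5 expressed genes of 9. HOX genes encode the transcription factors that set position along the body axis and, in blood, the state of progenitors. HOXA10 had 118, 121 and 111 TPM in replicates 1, 2 and 3, HOXA11 had 76.7, 76.0 and 68.5 TPM and HOXA13 had 59.9, 62.2 and 55.1 TPM. HOXA10 thus stood above every other HOX gene listed in each library. HOXA2 and HOXA4, toward the other end of the cluster, were lower: HOXA2 averaged 1.84 ± 0.33 TPM and HOXA4 1.89 ± 1.05 TPM, against 30.8 ± 3.6 TPM for HOXA5 and 19.9 ± 1.94 TPM for HOXA7. HOXA4 had 1.48, 1.11 and 3.08 TPM in replicates 1, 2 and 3, and 14.5% of its exon bases lie opposite HOXA-AS2.

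Within the HOXB cluster 9 genes had no count and HOXB9 had 2. For HOXB4, a factor of stem cell self-renewal, a count of 0 allows a level of up to 0.0906 TPM. HOXC4, HOXC6, HOXC8, HOXC9 and HOXC10 were expressed, with HOXC4 at 30.7, 33.8 and 37.1 TPM and HOXC10 at 23.4, 20.4 and 22.6 TPM in replicates 1, 2 and 3, while HOXC11, HOXC12 and HOXC13 had no count. In this cluster no gene beyond HOXC10 was detected. HOXC5, with 6 counts, shares 59.9% of its exon bases with another gene on its strand, where reads may be left unassigned. In the HOXD cluster 7 of 9 genes had no count and HOXD1 and HOXD11 had 1 each.

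**Figure D2:**
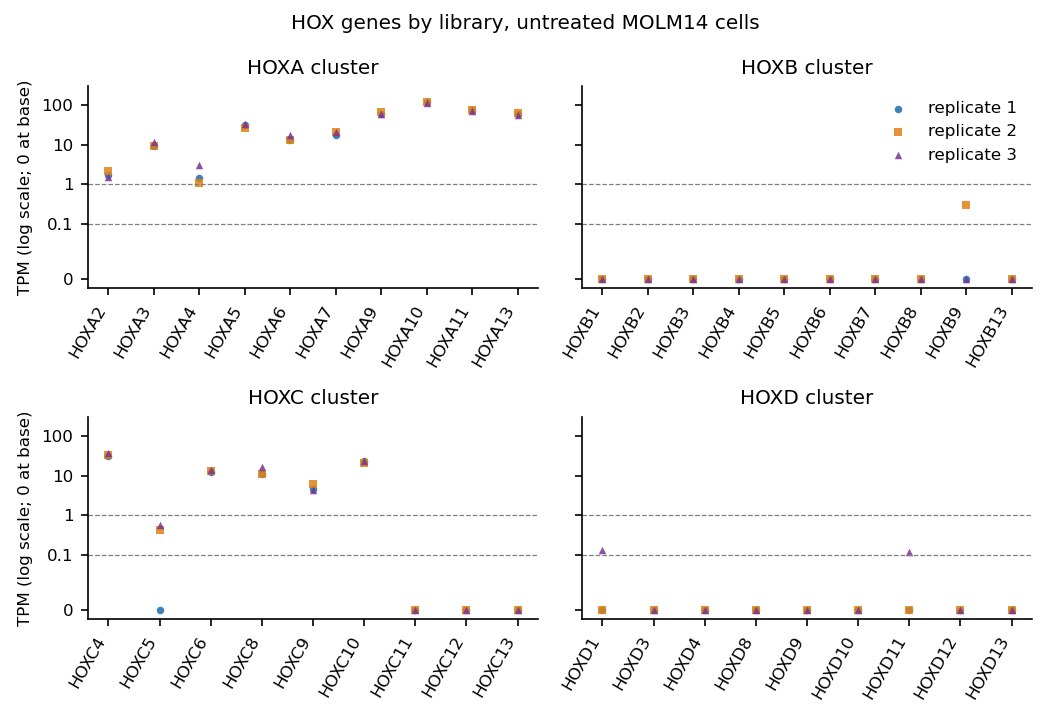
TPM (vertical axis, log scale, with libraries at 0 drawn at the base) of each listed HOX gene in the 3 untreated libraries, by cluster and in order of paralog number, with dashed lines at 1 and 0.1 TPM. The HOXA points lie above 1 TPM throughout and peak at HOXA10, the HOXC points drop to 0 after HOXC10, and HOXB and HOXD lie at or near 0.

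Of 8 partners of HOX proteins 5 (62.5%) were expressed, near the share of all protein-coding genes. PBX2 averaged 101 ± 6.81 TPM, PBX3 84.6 ± 1.48 TPM, MEIS1 22.5 ± 2.29 TPM, MEIS2 19.1 ± 0.643 TPM and PKNOX1 16.4 ± 0.472 TPM, whereas PBX4, MEIS3 and PKNOX2 had no count. Of the genes that KMT2A fusion proteins work with, all 26 listed were expressed. MLLT1, a reader of acetylated histones, averaged 178 ± 1.58 TPM, and DOT1L, the histone H3 lysine 79 methyltransferase, averaged 114 ± 5.96 TPM. MEN1 (menin), which tethers KMT2A to chromatin, had 56.7, 61.3 and 58.1 TPM in replicates 1, 2 and 3. The fusion's 2 source genes were lower, KMT2A at 8.70 ± 1.45 TPM and MLLT3 at 10.7 ± 1.01 TPM, and gene counts do not tell fusion from normal transcripts. ELL2, an elongation factor of the same complexes, was the lowest listed, at 1.53 ± 0.408 TPM.

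Transcription factors of the granulocyte-monocyte and progenitor stages were present together. CEBPA, required for granulocyte-monocyte progenitors, had 1063, 1130.3 and 999 TPM in replicates 1, 2 and 3, and 43.4% of its exon bases lie opposite other genes, whose own counts per base could supply 64.1% of its counts, so its level is uncertain. IRF8, a factor of monocytes and dendritic cells, had 395, 395 and 364 TPM. GFI1, a transcriptional repressor required for granulocyte development, had 203, 207 and 213 TPM. Each of these 3 genes kept within a narrow range over the libraries. MYC averaged 825 ± 58.4 TPM, MYB, a progenitor factor, 309 ± 14.3 TPM, and RUNX1 82.0 ± 7.89 TPM. Of the later myeloid factors, KLF4 averaged 14.1 ± 2.17 TPM and CEBPE, of late granulocytes, 2.37 ± 0.2 TPM. IRF4 had no count, and MAF had 1. ERG had 1 count and MYCN none. Of 13 factors of other lineages, 2 were expressed. NFE2, of the erythroid and megakaryocyte lineage, had 109, 104 and 107 TPM in replicates 1, 2 and 3, and PAX5, the B cell identity factor, had 30.8, 29.3 and 38.3 TPM. PAX5 stood above the B cell gene CD79A in each library, which averaged 2.64 ± 0.96 TPM. GATA1, TAL1 and EBF1 had 3 counts each and EOMES none.

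Azurophil granule genes were among the strongest of all genes, and those of later granules were mostly not expressed. All 18 azurophil genes listed were expressed, against 2 of 18 genes of specific and gelatinase granules and late granulocytes. The serine proteases stood near the top, behind SRGN, the proteoglycan that packs granule proteins, at 5846 ± 392 TPM. CTSG (cathepsin G) had 4009, 4366 and 4698 TPM in replicates 1, 2 and 3. ELANE (neutrophil elastase) had 3817, 4399.6 and 4458 TPM, and PRTN3 (proteinase 3) had 2551, 2815 and 3055 TPM. AZU1, an inactive member of the same protease family, had 3795, 4161 and 4873 TPM. All 4 were lowest in replicate 1 and highest in replicate 3. RNASE2, a ribonuclease best known from eosinophil granules, averaged 1542 ± 46.8 TPM. It and RNASE3 were listed here with the azurophil genes and not with the markers of other cell types. MPO, the peroxidase of azurophil granules, was far lower than RNASE2, at 191, 190.1 and 210.4 TPM in replicates 1, 2 and 3. BPI, a bactericidal protein, averaged 6.27 ± 1.14 TPM.

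Of the later granule genes, LTF (lactoferrin), LCN2, CAMP, MMP8, CD177 and OLFM4 had no count. MMP9 averaged 0.526 ± 0.149 TPM from 11 counts. The exception was CHI3L1, a chitinase-like glycoprotein of specific granules, with 178, 195 and 201 TPM in the 3 libraries. PGLYRP1 had 38 counts and 5.82 ± 1.80 TPM.

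Of 24 monocyte genes listed, 14 (58.3%) were expressed and 5 silent, shares near the 56.7% and 27.9% of all protein-coding genes. AIF1, an actin-bundling protein of monocytes, had 371, 371 and 401 TPM in replicates 1, 2 and 3. CSTA (cystatin A) had 326, 362 and 313 TPM, and CD4, which monocytes share with T cells, had 217, 247 and 249 TPM. None of these genes stood out in a single library. S100A9, a calcium-binding protein of monocytes and neutrophils, averaged 196 ± 5.52 TPM and its partner S100A8 61.4 ± 7.95 TPM, while S100A12 had 1 count. Of the 18 S100 genes 10 (55.6%) were expressed, near the share of all protein-coding genes, with S100A4 the highest at 486 ± 22.4 TPM. In contrast, the lipopolysaccharide coreceptor CD14 had 8 counts over the 3 libraries, a pooled level of 0.481 TPM with an exact 95% Poisson interval of 0.208 to 0.948 TPM. FCN1, VCAN, CD300E and CLEC7A had no count, and FCGR3A, which has a near-identical copy, had 1. The monocyte growth factor receptor CSF1R averaged 6.35 ± 1.39 TPM. CD68 averaged 0.908 ± 0.136 TPM, and 81.7% of its exon bases are shared with another gene on its strand. Of 20 macrophage and dendritic cell genes 3 were expressed, led by TREM2 at 5.45 ± 1.84 TPM, while CD163 had 3 counts, and MSR1, C1QB and CLEC9A none. The markers of hematopoietic stem cells lay lower still. Of 15 listed, MLLT3 was the expressed one, and it is also a source gene of the fusion, whose transcripts gene counts do not tell apart. THY1 was low, with 78 counts and 1.09, 0.392 and 2.47 TPM in replicates 1, 2 and 3. CD34 had 2 counts, an interval of 0.00298 to 0.0889 TPM, and MECOM, PRDM16, HLF, HOPX, PROM1 and ADGRG1 had none.

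**Figure D3:**
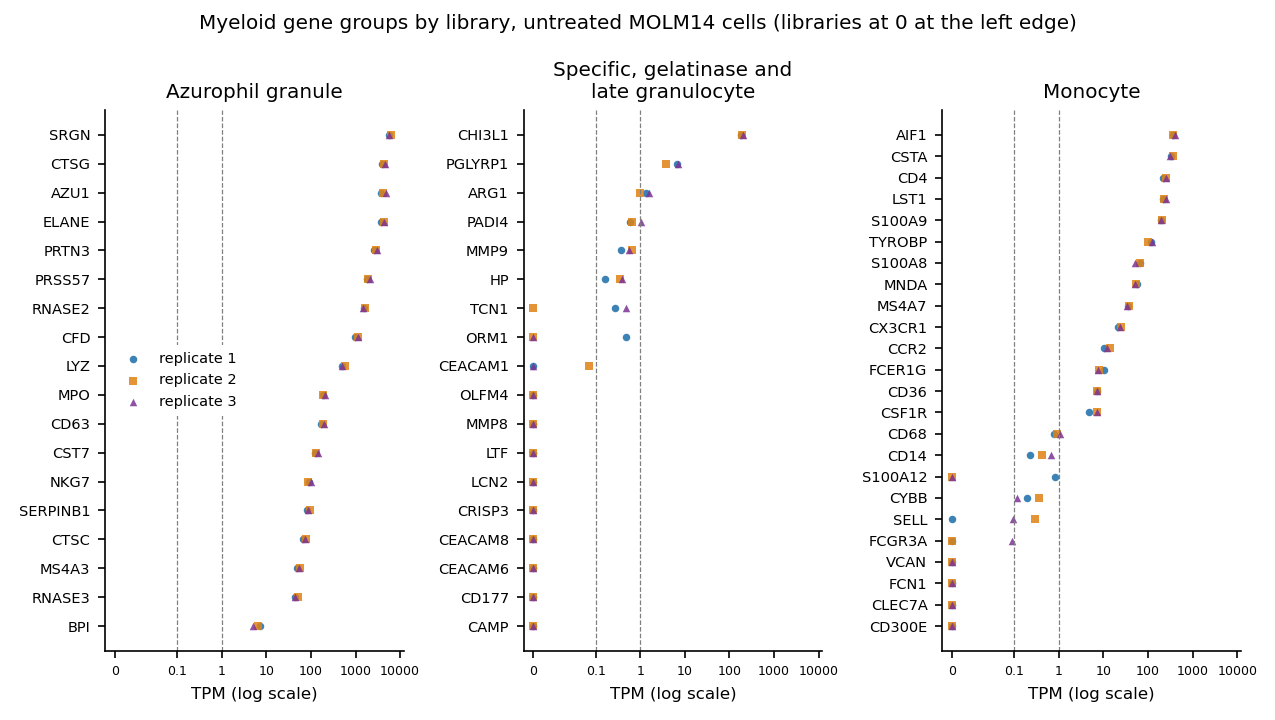
TPM (horizontal axis, log scale, with libraries at 0 at the left edge) of azurophil granule genes, later granule genes and monocyte genes, 1 point per untreated library, with dashed lines at 0.1 and 1 TPM. The azurophil genes lie to the right of 1 TPM throughout, 9 of the later granule genes lie at 0 in every library, and the monocyte genes spread from AIF1 at 381 TPM to 4 genes without a count.

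Of 135 receptors for outside signals 66 (48.9%) were expressed and 34 (25.2%) silent, beside 56.7% and 27.9% of all protein-coding genes. Of 40 receptor tyrosine kinases 15 were expressed and 14 silent. RET, the receptor of the glial cell line-derived neurotrophic factor family, had 262, 310.3 and 304 TPM in replicates 1, 2 and 3, a range that overlaps that of FLT3. The next in order, INSR (insulin receptor) at 50.5 ± 6.54 TPM and EPHB4 at 49.5 ± 2.54 TPM, overlapped each other and lay below RET and FLT3 in each library. With the length of the longest transcript in place of merged exons, FGFR1, at 59.4 TPM, stood above both. FGFR1 and FGFR3 averaged 39.0 ± 2.51 TPM and 38.3 ± 2.80 TPM. KIT, the stem cell factor receptor, had 20 counts over the 3 libraries, a pooled level of 0.408 TPM with an interval of 0.249 to 0.63 TPM. EGFR, MET, KDR, ALK, NTRK2 and MERTK had no count, and PDGFRA and PDGFRB had 1 each.

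Cytokine receptors counted 29 of 42 expressed genes. IL6R had 175, 187 and 189 TPM in replicates 1, 2 and 3, while IL6ST (gp130), its signalling partner, averaged 5.56 ± 0.498 TPM. The interleukin 3 receptor alpha chain IL3RA (CD123) had 102, 115 and 120.5 TPM, against 9.62 ± 1.24 TPM for CSF2RB, the beta chain it shares with CSF2RA, which averaged 28.8 ± 4.69 TPM. In both receptors the ligand-binding chain thus exceeded the shared signalling chain in each library. CSF3R, the receptor of granulocyte colony-stimulating factor, averaged 32.3 ± 3.89 TPM and EPOR 19.3 ± 3.28 TPM. IFNGR1 and IFNGR2, the interferon gamma receptor chains, averaged 65.6 ± 7.54 TPM and 61.3 ± 1.98 TPM. IFNAR1 and IFNAR2, for type I interferon, averaged 29.5 ± 1.78 TPM and 17.3 ± 0.736 TPM, and 44.2% of the exon bases of IFNAR2 are shared on its strand. LIFR and IL1R1 had no count.

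Among chemoattractant receptors 12 of 34 were expressed. CXCR4, which holds leukemia cells in marrow, had 102, 137 and 132 TPM in replicates 1, 2 and 3 and was lowest in replicate 1. LTB4R, the leukotriene B4 receptor, averaged 27.9 ± 3.16 TPM, CX3CR1 23.0 ± 1.73 TPM and CCR2 12.1 ± 1.67 TPM. The formyl peptide receptors of mature phagocytes, FPR1, FPR2 and FPR3, had 2, 0 and 3 counts. Of the Toll-like receptors TLR2 (11.2 ± 2.29 TPM), TLR6 (6.74 ± 0.87 TPM) and TLR1 (3.11 ± 0.797 TPM), of which TLR1 and TLR6 pair with TLR2, were expressed, while TLR4 averaged 0.197 ± 0.0638 TPM and TLR5, TLR7 and TLR10 had 3, 2 and 1 counts. Death receptors of the TRAIL and TNF systems were present, TNFRSF1A at 111 ± 6.26 TPM, TNFRSF10B at 85.6 ± 5.28 TPM and FAS at 17.4 ± 0.655 TPM.

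**Figure D4:**
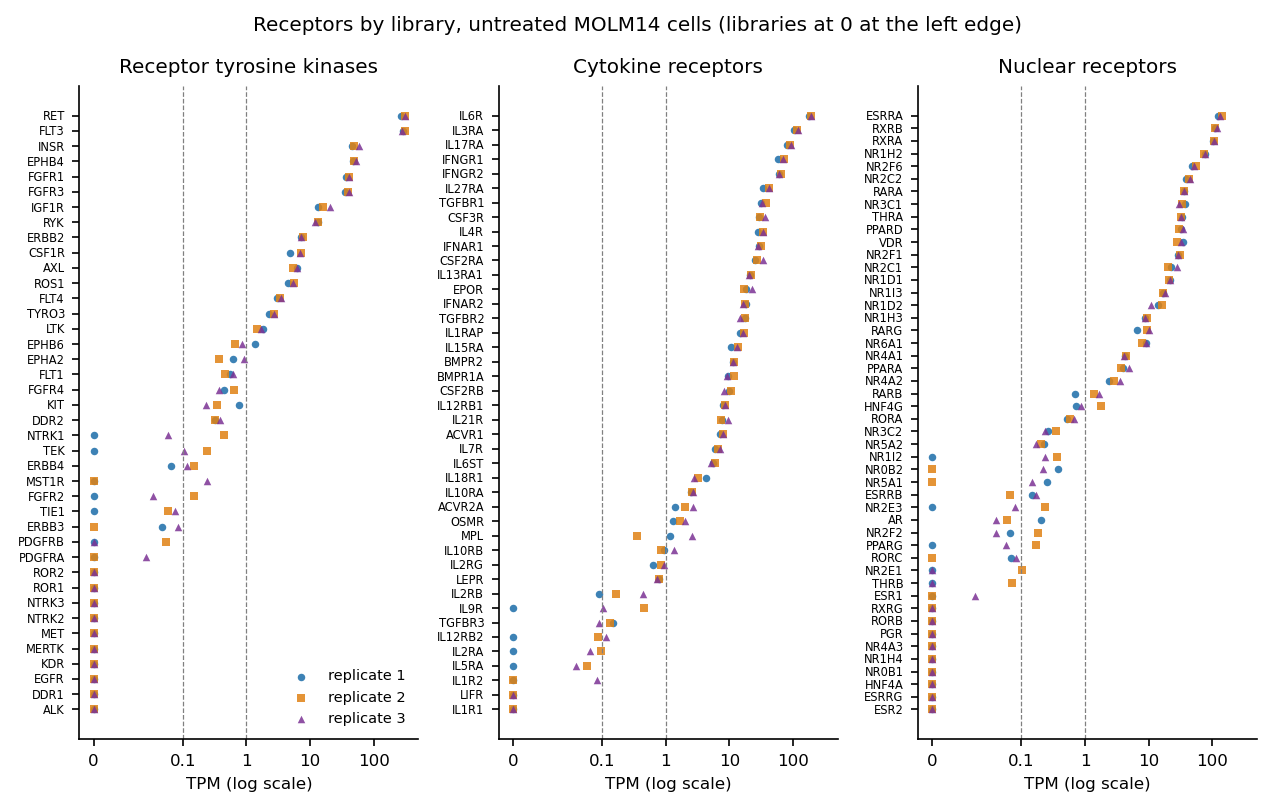
TPM (horizontal axis, log scale, with libraries at 0 at the left edge) of receptor tyrosine kinases, cytokine receptors and nuclear receptors, 1 point per untreated library, in order of mean TPM, with dashed lines at 0.1 and 1 TPM. RET and FLT3 stand apart from the next kinase, INSR, while the cytokine and nuclear receptors descend without such a step from 184 TPM for IL6R and 132 TPM for ESRRA.

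Of 54 surface proteins studied as leukemia targets, 36 (66.7%) were expressed, beside 56.7% of all protein-coding genes. SPN (CD43), a mucin of leukocytes, had 278, 297 and 333 TPM in replicates 1, 2 and 3 and CD70, the ligand of CD27, had 247, 263 and 269 TPM. Both exceeded CD33, at 28.2 ± 3.32 TPM, in every library. CD44 averaged 42.0 ± 0.457 TPM, CD47, the signal that restrains phagocytosis, 33.0 ± 3.31 TPM, LILRB4 18.9 ± 2.78 TPM and IL1RAP 16 ± 1.30 TPM. CLEC12A (CLL-1) averaged 1.33 ± 0.132 TPM and HAVCR2 (TIM-3) 0.73 ± 0.228 TPM. CD274 (PD-L1) had 3 counts and CD96 1. Of 18 integrin alpha chains 9 were expressed, and of 8 beta chains 3. ITGAL and ITGB2, the chains of LFA-1, averaged 218 ± 32.4 TPM and 175 ± 12.1 TPM. ITGAM (CD11b), a maturation marker, averaged 23.0 ± 2.13 TPM and ITGAX (CD11c) 1.63 ± 0.407 TPM. ITGA4 and ITGB1, the chains of VLA-4, averaged 54.7 ± 3.78 TPM and 66.3 ± 4.26 TPM.

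Antigen presentation genes differed by class. All 10 class I genes listed were expressed, with B2M, the invariant light chain, at 335, 378 and 352 TPM in replicates 1, 2 and 3. Of 13 class II genes 5 were expressed. HLA-DRA had 2.35, 1.51 and 2.0 TPM in the same order and HLA-DPB1 averaged 0.241 ± 0.0897 TPM, while the invariant chain CD74 averaged 110.3 ± 6.35 TPM and the class II transactivator CIITA 5.72 ± 0.251 TPM. The HLA genes are polymorphic, and reads from alleles unlike the reference may be lost, so their levels are less certain. The phagocyte NADPH oxidase, which makes superoxide, was present in part. Its membrane chain CYBA had 513, 587 and 664 TPM and the GTPase RAC2 averaged 478 ± 35.7 TPM. The other membrane chain, CYBB (gp91phox), the catalytic one, had 8 counts over the 3 libraries, a pooled level of 0.205 TPM with an interval of 0.0886 to 0.404 TPM. NCF4 and NCF1, cytosolic subunits, averaged 222 ± 12.8 TPM and 21.6 ± 1.80 TPM, and NCF1 has near-identical copies between which reads can be split.

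Nuclear receptors are transcription factors that small lipophilic ligands switch, and RIP140 is one of their corepressors. Of 48 genes, 22 were expressed. NRIP1 itself had 31.2, 31.3 and 29.1 TPM in replicates 1, 2 and 3. RARA, the retinoic acid receptor of myeloid cells, had 36.3, 35.6 and 36.2 TPM, and its partner RXRA had 103, 107 and 106 TPM. These 3 genes varied by a few percent between libraries. RXRB averaged 113 ± 4.37 TPM, ESRRA, an orphan receptor of mitochondrial genes, 132 ± 7.61 TPM, RARG 8.69 ± 1.81 TPM and RARB 1.24 ± 0.495 TPM. NR3C1, the glucocorticoid receptor, averaged 33.5 ± 3.56 TPM and VDR, the vitamin D receptor, 31.5 ± 3.16 TPM. NR2F1 (COUP-TF1), known from nervous system development, averaged 29.4 ± 1.05 TPM. PPARG had 3 counts and ESR1 1, and RXRG, ESR2, PGR, HNF4A and NR4A3 had none.

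Retinoid enzymes were expressed for 8 of 20 genes. The short-chain dehydrogenases DHRS4, which has close copies, and DHRS9 averaged 41.9 ± 1.48 TPM and 25.1 ± 0.723 TPM, and RDH10, which oxidises retinol, averaged 19 ± 1.54 TPM. Of the retinaldehyde dehydrogenases, which make retinoic acid, ALDH1A3 had 21.8, 19 and 17.7 TPM in replicates 1, 2 and 3, ALDH1A2 had 3 counts over all libraries and ALDH1A1 none. The CYP26 enzymes break retinoic acid down. CYP26B1 averaged 5.06 ± 0.266 TPM and CYP26A1 had no count. Coregulators were nearly all expressed, 23 of 24. Among corepressors HDAC1 averaged 225 ± 10.7 TPM and NCOR1 71.7 ± 7.60 TPM, so NRIP1 lay below both in each library. The coactivator NCOA4, also the receptor for ferritin breakdown, averaged 283 ± 33.8 TPM, NCOA2 22.2 ± 2.19 TPM and NCOA1 9.65 ± 1.01 TPM. PPARGC1A was the member not expressed, at 0.203 ± 0.0401 TPM.

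Genes of survival and division were widely expressed, 5 of 6 antiapoptotic and 10 of 11 proapoptotic members of the BCL2 family and 11 of 11 proliferation genes. MCL1, which holds back apoptosis, had 233, 241 and 211 TPM in replicates 1, 2 and 3 and BCL2, the target of venetoclax, had 47.5, 48.5 and 51.9 TPM. MCL1 exceeded BCL2 in each library. BCL2L1 (BCL-XL) averaged 27.7 ± 3.10 TPM and BCL2A1 1.98 ± 0.535 TPM. Of the proapoptotic genes BIK averaged 204 ± 7.23 TPM, BAX 173 ± 11.6 TPM and BCL2L11 (BIM) 35.5 ± 1.31 TPM. The replication clamp PCNA averaged 737 ± 36.5 TPM, MCM7 of the replicative helicase 507 ± 3.29 TPM and TOP2A 269 ± 13 TPM. MKI67 had 200.03, 204 and 261 TPM and was highest in replicate 3. The D-type cyclins ran in the order CCND3 at 196 ± 7.23 TPM, CCND2 at 82.5 ± 5.49 TPM and CCND1 at 4.18 ± 0.131 TPM, with no overlap between them, and CDK6 averaged 176 ± 1.04 TPM. The cell cycle inhibitors CDKN2A and CDKN2B, neighbours on chromosome 9, had no count in any library, and a count of 0 allows up to 0.0786 and 0.0839 TPM. CDKN1A (p21) had 375, 347 and 361 TPM in replicates 1, 2 and 3. CDKN2C and CDKN1B averaged 195 ± 10.2 TPM and 124 ± 12.4 TPM. Of 32 genes often mutated in this leukemia, 31 were expressed, from NPM1 at 2178 ± 112 TPM down to U2AF1 at 2.44 ± 0.519 TPM, and KIT was low. U2AF1 has a near-identical annotated copy in the reference genome, where reads can be lost. WT1, an antigen of many myeloid leukemias, averaged 72.2 ± 2.50 TPM.

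Each glycolytic step was led by certain isoenzymes, compared here in TPM and so per length. Hexokinase HK2 had 55.1, 60.6 and 53.6 TPM in replicates 1, 2 and 3, against 13.5 ± 1.38 TPM for HK1. Phosphofructokinases PFKP and PFKL averaged 155 ± 1.6 TPM and 122 ± 2.72 TPM, and the muscle form PFKM 2.37 ± 0.227 TPM. Lactate dehydrogenase A averaged 548 ± 43.5 TPM against 27.9 ± 1.94 TPM for LDHB, and LDHC, of testis, had no count. In each of these steps the leading forms stayed above the others in every library. Pyruvate kinase PKM averaged 475 ± 6.27 TPM and PKLR, of liver and red cells, 0.397 ± 0.149 TPM. ENO1 averaged 1717 ± 40.2 TPM, and ENO3, the muscle enolase, had 586, 559 and 529 TPM. ALDOA averaged 12.9 ± 0.271 TPM, below ALDOC at 24.5 ± 1.7 TPM, and 42.3% of the exon bases of ALDOA are shared with other annotated genes on its strand. The hexose transporter SLC2A3 (GLUT3) averaged 78.9 ± 5.43 TPM and SLC2A1 (GLUT1) 34.5 ± 1.70 TPM. The lactate carriers SLC16A3 and SLC16A1 averaged 98.9 ± 11.2 TPM and 85.8 ± 6.27 TPM. PDK4, which shuts off pyruvate dehydrogenase, had no count, while PDK1, PDK2 and PDK3 averaged 8.14 ± 0.423 TPM, 10.1 ± 1.12 TPM and 13.2 ± 0.947 TPM.

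All 20 genes of the tricarboxylic acid cycle were expressed, from MDH2 (malate dehydrogenase) at 376 ± 7.41 TPM to SDHA at 6.54 ± 1.47 TPM. The other succinate dehydrogenase subunits SDHB, SDHC and SDHD averaged 140.2 ± 12.9 TPM, 35.0 ± 2.15 TPM and 116 ± 8.36 TPM, and SDHA, the catalytic subunit, is known to have pseudogene copies that can take or cancel its reads. IDH2 and IDH1, the mitochondrial and cytosolic isocitrate dehydrogenases, averaged 355 ± 2.48 TPM and 85.5 ± 4.60 TPM. Of the paired tissue forms of cytochrome c oxidase, the ubiquitous ones led. COX4I1 averaged 432 ± 6.57 TPM and COX6A1 66.6 ± 5.78 TPM, while the lung form COX4I2 and the muscle form COX6A2 had no count. The muscle form COX7A1 had 4.27, 3.85 and 13.8 TPM in replicates 1, 2 and 3 and stood out in replicate 3. Its mean was 7.29 TPM, and 4.06 TPM without that library. The 13 mitochondrially encoded mRNAs ran from 2808 ± 316 TPM for MT-ND4L to 16256 ± 859 TPM for MT-CO1 on the same scale.

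Lipid genes covered both synthesis and oxidation. SCD, the desaturase that makes oleate, had 830.5, 920.2 and 913 TPM in replicates 1, 2 and 3, and FASN (fatty acid synthase) had 366, 354 and 364 TPM. All 14 genes of cholesterol synthesis and uptake were expressed, among them FDPS, a synthase of the isoprenoid steps, at 297 ± 8.28 TPM. Of 22 genes of fatty acid oxidation and uptake 18 were expressed. CPT1A, the gate to mitochondrial oxidation, averaged 106 ± 6.25 TPM, against 0.477 ± 0.361 TPM for the muscle form CPT1B and 0.0901 ± 0.0357 TPM for CPT1C. The value of CPT1B is uncertain, since 66.4% of its exon bases are shared on its strand. CD36, the fatty acid translocase, averaged 7.13 ± 0.168 TPM, and ACADL and FABP4 had no count.

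Amino acid and one-carbon genes were all expressed, 27 of 27. ASS1, which makes arginine from citrulline, had 1025, 1009 and 969 TPM in replicates 1, 2 and 3. PHGDH, the entry to serine synthesis, averaged 118 ± 2.20 TPM, SHMT2 509.8 ± 11.5 TPM and MTHFD2 187 ± 9.05 TPM. SLC7A5 and SLC1A5, carriers of leucine and glutamine, averaged 341 ± 29.7 TPM and 353 ± 31.2 TPM. Asparagine synthetase ASNS was the lowest of the group at 1.58 ± 0.642 TPM. For the handling of cytarabine, the nucleoside drug of this leukemia, the carrier SLC29A1 averaged 138 ± 9.82 TPM, the activating kinase DCK 51.9 ± 3.83 TPM and SAMHD1, which breaks the active form down, 43.5 ± 2.77 TPM. CDA, which deaminates the drug, had 0.892, 0.804 and 3.99 TPM in replicates 1, 2 and 3, so its mean of 1.90 TPM rests on replicate 3. Without that library it was 0.848 TPM. The efflux pumps ABCB1 (P-glycoprotein) and ABCG2 had no count, and a count of 0 allows up to 0.0586 and 0.0675 TPM. ABCC1 averaged 23.0 ± 1.5 TPM.

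Of 8 DNA methylation genes 7 were expressed, and of 7 Polycomb genes 7. UHRF1 and DNMT1, which maintain DNA methylation, averaged 363 ± 5.15 TPM and 234 ± 4.28 TPM, and the de novo methyltransferases DNMT3B and DNMT3A 27.3 ± 0.441 TPM and 17.4 ± 1.17 TPM. TET3, an enzyme of demethylation, averaged 39.6 ± 2.53 TPM, TET2 7.35 ± 0.641 TPM and TET1 1.31 ± 0.0553 TPM. The Polycomb subunits BMI1 and EZH2 averaged 228 ± 20.9 TPM and 74.1 ± 5.31 TPM. Of 22 cancer-testis genes 16 had no count, among them CTAG1B, MAGEA3 and SSX2, and PRAME had 10 counts. Several of these genes have near-identical copies, so a count of 0 is less certain for them. TERT, the catalytic subunit of telomerase, had 16.2, 19.4 and 26.7 TPM in replicates 1, 2 and 3 and was listed with them, together with CCNA1, a germ cell cyclin, at 6.70 ± 1.61 TPM.

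Of 25 long noncoding RNAs listed by name 20 were expressed. Among all annotated genes, 10.3% of long intergenic noncoding, 41.5% of antisense-type and 25% of processed-transcript genes were expressed. GAS5, a host of small nucleolar RNAs, averaged 745 ± 30.0 TPM, and HOXA10-AS, in the HOXA cluster, averaged 149.7 ± 4.23 TPM. HOTTIP, at the HOXA13 end of the cluster, averaged 8.82 ± 0.395 TPM, HOTAIRM1, at the other end, 1.86 ± 0.637 TPM, and HOTAIR, in the HOXC cluster, had no count. The nuclear RNA MALAT1 had 526, 599 and 1187 TPM in replicates 1, 2 and 3, NEAT1 had 15.1, 18.3 and 34.6 TPM and MIR223HG, the host of a myeloid microRNA, had 83.1, 103 and 156 TPM. All 3 were highest in replicate 3, the library with the most mitochondrial ribosomal RNA. Without replicate 3 the means of MALAT1, NEAT1 and MIR223HG were 563, 16.7 and 93.2 TPM, against 771, 22.7 and 114 TPM with it.

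Promoters of expressed and silent genes differed in base composition, a property that the classes did not use. The promoter table of RefSeq (GRCh38.p14) gave 250 bases before and 50 after the start of 11308 genes that matched a single promoter by symbol. Genes with several promoters in it were left out. The observed over expected ratio of CpG, the dinucleotide that DNA methylation depletes in the germ line, had a median of 0.863 in 6563 expressed genes (quartiles 0.739 and 0.968), 0.563 in 1631 low genes and 0.355 in 3114 silent genes (quartiles 0.167 and 0.724). A ratio of 0.6 or more was found for 87.3% of expressed and 34.4% of silent genes. The letters TATAAA, on the gene's strand and lying within the stretch from 40 to about 20 bases upstream, occurred in 2.04% of expressed, 5.70% of low and 8.96% of silent genes, and in 4.47% of all matched promoters. The share did not fall steadily with level. Within the expressed class it was 8.97% at a mean of 1000 TPM or more, which is 7 of 78 genes. It was 2.72% at 100 to under 1000 TPM, 1.64% at 10 to under 100 TPM and 2.31% under 10 TPM. Genes are not independent replicates, and these shares are descriptions.

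Azurophil genes differed from most expressed genes in this. Of the 18 genes of the azurophil list 11 had a single promoter in the table. Of these 11, 9 had a ratio under 0.6, against 12.7% of all expressed genes. Those 9 include RNASE2 and RNASE3, best known from eosinophil granules. Among the 78 matched genes at 1000 TPM or more, 9 lay under 0.6. On the azurophil list were 6 of these: CTSG, AZU1, PRTN3, PRSS57, RNASE2 and CFD. CTSG had a ratio of 0.143 and AZU1 of 0.276, against 0.928 for MYB and 1.27 for HOXA9. CD33 also had a low ratio, 0.117. The 250 bases upstream of the start are shown for CTSG, AZU1, MYB and HOXA9 to set 2 CpG-poor promoters of highly expressed granule genes beside 2 CpG-rich ones of progenitor transcription factors, and this contrast does not hold for every member of either group. Of 8 listed progenitor factors with a single promoter in the table, 4 also lay under 0.6, MEF2D at 0.197, SOX4 at 0.485, MYCN at 0.546 and LYL1 at 0.55. The azurophil genes SERPINB1 and CTSC had ratios of 0.839 and 1.03. The stretches are written 5′ to 3′ on the gene's strand with every CG in capitals. They lie at chr14:24576251-24576500 (minus strand) for CTSG, chr19:827587-827836 (plus strand) for AZU1, chr6:135181058-135181307 (plus strand) for MYB and chr7:27165538-27165787 (minus strand) for HOXA9, in GRCh38.p14.
CTSG: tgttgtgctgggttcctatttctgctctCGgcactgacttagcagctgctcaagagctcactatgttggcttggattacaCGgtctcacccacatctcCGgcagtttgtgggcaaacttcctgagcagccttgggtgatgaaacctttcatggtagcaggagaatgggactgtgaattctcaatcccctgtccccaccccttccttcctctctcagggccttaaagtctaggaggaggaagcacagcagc
AZU1: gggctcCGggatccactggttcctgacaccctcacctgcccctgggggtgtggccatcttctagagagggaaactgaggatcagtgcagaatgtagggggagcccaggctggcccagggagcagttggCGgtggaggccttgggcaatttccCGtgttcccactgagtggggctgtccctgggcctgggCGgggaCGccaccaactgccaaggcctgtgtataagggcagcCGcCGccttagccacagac
MYB: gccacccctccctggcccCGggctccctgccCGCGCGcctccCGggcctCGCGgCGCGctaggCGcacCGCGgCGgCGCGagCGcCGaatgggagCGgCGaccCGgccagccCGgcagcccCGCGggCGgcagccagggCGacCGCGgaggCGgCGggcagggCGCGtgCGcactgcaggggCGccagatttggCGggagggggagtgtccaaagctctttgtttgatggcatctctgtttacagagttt
HOXA9: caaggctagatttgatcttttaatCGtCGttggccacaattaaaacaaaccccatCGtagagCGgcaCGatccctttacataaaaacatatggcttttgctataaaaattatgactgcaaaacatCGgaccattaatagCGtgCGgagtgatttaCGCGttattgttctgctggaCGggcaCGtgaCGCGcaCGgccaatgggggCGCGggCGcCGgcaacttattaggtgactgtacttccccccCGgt
The stretches hold 3, 7, 34 and 20 CG dinucleotides in that order, beside mean levels of 4358, 4277, 309 and 61.2 TPM.

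**Figure D5:**
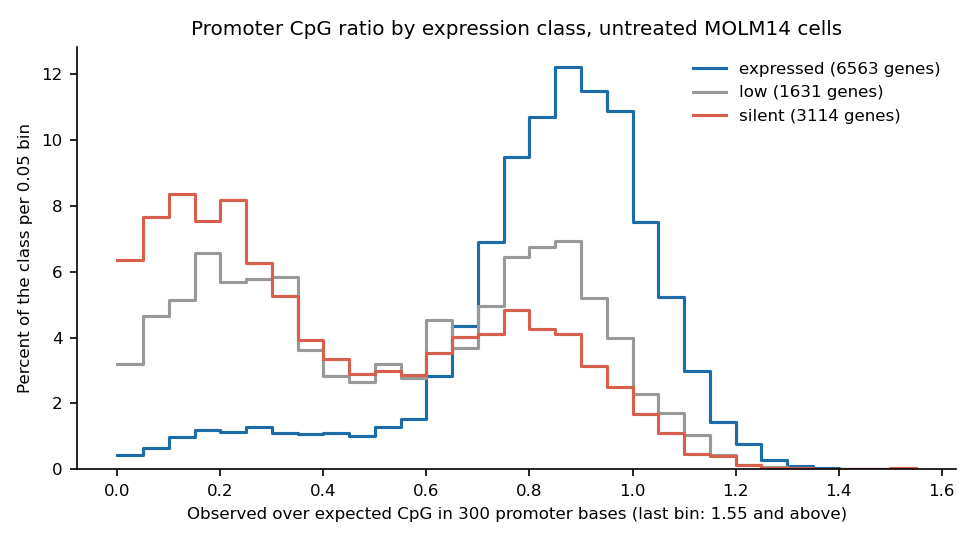
Percent of the genes of each class per bin (vertical axis) by the observed over expected CpG ratio of their 300 promoter bases (horizontal axis), as 1 line each for the expressed, low and silent classes. Expressed genes form a peak around 0.9 with few genes below 0.6, silent genes have their main peak below 0.3 and a smaller one at higher ratios, and low genes show both.

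Spread between the libraries was small for most genes. Over 8629 genes with a mean of at least 10 TPM, the coefficient of variation over the 3 libraries had a median of 6.26%. The size of counting error, worked out for each gene from its counts, had a median of 4.12%. This is an expected size and not the median that counting error would show over 3 libraries. The 2 values are thus not the same measure. The coefficient of variation exceeded 20% in 214 genes. Of the 100 most variable genes, 89 were highest in replicate 3 and 76 lowest in replicate 1. Histone genes were among them, with coding sequences so alike that reads can be lost or shared. H4C1 had 129, 211 and 336 TPM in replicates 1, 2 and 3 and H2BC4 had 31.9, 50.1 and 78.4 TPM. All 15 replication-dependent histone genes listed were expressed, from H1-3 at 6.69 ± 3.35 TPM to H2BC12 at 322 ± 71.2 TPM, and their mRNAs are known to lack a poly(A) tail. CHAC1, a glutathione-degrading enzyme of the stress response, had 5.84, 16.4 and 13.9 TPM and was low in replicate 1. Replicates 1 and 2 were more than 2-fold apart for 4 genes, replicates 1 and 3 for 25 and replicates 2 and 3 for 5. At the other end SLC25A6, a mitochondrial carrier of ADP and ATP, had 3154, 3157 and 3155 TPM in replicates 1, 2 and 3. The part of RNA selection or RNA quality in the values of replicate 3 was not tested.

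Overlapping genes limit some of these levels. A first set held antisense-type genes with 90% or more of their exon bases opposite the exons of 1 protein-coding gene. That partner had to have at least 300 pooled counts per kilobase, a limit apart from the expressed class. Of this set 138 of 139 were expressed, with a median of 1.96 times the counts per base of the partner. Among antisense-type genes with no exon base opposite another gene's exons 535 of 2435 were expressed, and among the remaining ones, which overlap in part or lie opposite other genes, 1628 of 2967. The strand setting of the counting is not given in the sources used here, and a gene and its antisense partner cannot be told apart without it. The opposite-strand partners of 485 expressed protein-coding genes (4.31%) could supply 50% or more of their counts at the partner's own counts per base. CEBPA, GAPDH, IFNAR2, HOXA4, ALDOA and PFKM, whose levels are given above, are such genes, and so are CXCR5, ITGB7, GLS2, NR1I3, PGAM2, GAPDHS and HLA-DMA, at 4.50, 5.27, 6.68, 17.3, 9.87, 18.2 and 10.3 TPM. The levels of all these genes are uncertain. For GAPDH the partners could supply 51.8% of the counts, for HOXA4 66.8%, for IFNAR2 75%, and for ALDOA more counts than it had. The low genes CD68, MMP9, PKLR and RARB carry the same uncertainty. On the gene's own strand, 856 protein-coding genes share 50% or more of their exon bases with another gene. TLR9, which had no count, shares 86.3% and CCR6, also without a count, 69.2%, and reads there may have been left unassigned.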

How the data were processed

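Total RNA of MOLM14 cells was extracted with a column kit and sequenced as read pairs on a NovaSeq by a provider, per the labels' protocols. The authors deposited whole-number read counts per gene and library. FastQC, STAR and HTSeq with the GRCh38 build are named in the submitters' processing notes, while versions, annotation release and strand setting are not given in the sources used here. Of 61487 gene identifiers, 61369 were paired with a symbol and 58312 with merged exon lengths from GENCODE 29, which is not known to be the authors' release.

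TPM were computed from the counts as described above. A gene was expressed at 1 TPM or more in every library and silent under 0.1 TPM in every library. The biological coefficient of variation came from edgeR 4.0.16 with TMM scaling, in R 4.3.3, and other steps ran in Python 3.11.15 with pandas 2.3.3. The steps were tested on simulated data. Named genes are members of the lists, the 25 coding and 10 other genes of highest level, and the 10 most and 10 least variable; other genes were named after their values were seen. Some genes of these pathways are not reported here. Members and lists were chosen with earlier results of these data known. Alternatives covered the length, the scaling, the limits, equal depth, and leaving out each replicate.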

Additional observations from a re-analysis of the deposited data

How the results depend on the processing

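No paired analysis was possible because there is a single group and no test. Over changes of length, scaling, limits, depth and replicates the count of expressed genes stayed between 10657 and 11794. That of silent genes stayed between 5101 and 6203. Under other limits, longest-transcript lengths or with a replicate left out, 570 to 630 of 986 list genes were expressed, against 601 in the main setting. With longest-transcript lengths no list gene passed between expressed and silent. Other limits or a left-out replicate could not bring that about by definition. By percent of counts instead of TPM, the 10, 100 and 1000 genes of highest TPM held 5.90%, 21.3% and 49.8%, since counts are not divided by length. When genes were ranked by counts as well, the top 10, 100 and 1000 held 6.96%, 23.2% and 54.0% of the counts. The median coefficient of variation was 9.90% with no filter on level, and 3.75% to 6.10% with 1 replicate left out, the lowest without replicate 3. The biological coefficient of variation was 3.64% to 9.85% with 1 replicate left out, again lowest without replicate 3. The cause was not tested. Scaling over all gene types multiplied the levels of the 236 named expressed genes by a near-constant factor with a median of 0.661. With longest-transcript lengths the factor had a median of 0.867 and ran from 0.683 for PGLYRP1 to 1.98 for PHGDH. Of the 236 genes 12 moved over 1.5-fold, among them ENO3, PKM, SDHA and B2M. By more than 1 SD over the replicates moved 181, so the SDs given do not cover the choice of length. Leaving out replicate 3 moved COX7A1 over 1.5-fold, to 4.06 TPM. Of markers of other cell types 7 were expressed at a limit of 2 TPM, and of stem cell genes 2 without replicate 2. Among genes that share no exon bases, a choice made after seeing the data, 49.4% were expressed and 34.1% silent. Depth limits low genes: with every library thinned to the smallest, 5051 coding genes had no count.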

Other observations

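Gene families outside the lists were read after the data were seen, as values with no test. Among ion channels, 24 of 96 potassium channel genes were expressed. KCNAB2, a beta subunit, averaged 144 ± 4.88 TPM. KCNN4, the calcium-activated channel of blood cells, had 66.7, 72.7 and 86.9 TPM in replicates 1, 2 and 3, and KCNQ3, best known from neurons, had 42.5, 43.8 and 44.8 TPM. GABRA4, a subunit of the GABA-A receptor of nerve cells, had 10.7, 12.5 and 11.6 TPM, while 14 of the 19 subunits were silent.

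Of 19 WNT ligands, secreted signals of development, 5 were expressed and 7 silent. WNT7B had 141, 142 and 148 TPM in replicates 1, 2 and 3, WNT6 averaged 44.0 ± 2.94 TPM and WNT10B 27.0 ± 2.41 TPM. Of 22 FGF ligands 2 were expressed, FGF6 at 2.62 ± 1.59 TPM being the highest. Collagens, proteins of the extracellular matrix, counted 8 expressed genes of 44. COL27A1 had 24.6, 25.3 and 37.5 TPM and COL9A3 had 20.8, 25.1 and 32.2 TPM, both highest in replicate 3. Claudins, of tight junctions, counted 5 of 24, led by CLDN15 at 17.7 ± 1.15 TPM. Of 56 cytochrome P450 enzymes 12 were expressed, led by CYP20A1 at 60.2 ± 7.92 TPM, and CYP2R1, a vitamin D 25-hydroxylase, averaged 12.7 ± 0.573 TPM. Of 24 bitter taste receptors 9 were expressed, the highest TAS2R20 at 4.90 ± 2.35 TPM from 65 counts.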
